A study of Mus musculus with 4 samples.

Results

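The genes Retnla, Lyz1, Ear2, Chil3, Ccl6, Ccl9 and Fn1, which encode secreted proteins of myeloid cells, were followed in CD45+ immune cells of the mouse mammary gland. These 7 genes, of 55253 matched between the libraries, were chosen by name because earlier results of the same data had put them together, so their joint height in myeloid cells is a description and was not tested. Raw counts of unique molecular identifiers (UMIs, 1 per captured mRNA molecule) were read in 3 classes of cells. These classes were set by counts of myeloid markers and are called myeloid classes below, although the third also carried markers of lymphocytes and neutrophils. Macrophages were cells with a summed count of C1qa, C1qb and C1qc, the complement C1q chains, of at least 4. Monocytes had a sum under 4, at least 1 UMI of Csf1r (the receptor of macrophage colony-stimulating factor), none of Siglech and at least 1 UMI over Ly6c2, Ms4a4c, Cd300e, Ace and Treml4. The remaining cells with Csf1r and a C1q sum under 4 are called other Csf1r-positive cells. They numbered 1321, 365 and 375 of 15290 analysed cells in the first library (DR_MG_2021 in the labels), and 1416, 715 and 664 of 14610 in the second library (DR_MG_2022).

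Macrophages exposed to interleukin-4 and interleukin-13 take a state called alternative activation, in which the signal transducer STAT6 turns on a set of secreted proteins. Retnla encodes resistin-like molecule alpha, and Chil3 a chitinase-like protein without chitinase activity; with the arginase gene Arg1 these are the usual mouse markers of that state. Ccl6 and Ccl9 encode chemokines that signal through the receptor CCR1, Lyz1 encodes a bacteriolytic lysozyme, Ear2 a ribonuclease of the eosinophil-associated family, and Fn1 the matrix glycoprotein fibronectin. Several of these genes are also known from resident macrophages of serous cavities and lung, so their presence does not by itself name a state. The label of alternative activation was only partly carried by the data: Arg1 was near 0, with 12 UMIs over the macrophages of 10 samples and 16 over their other Csf1r-positive cells, and Chil3 had its highest level in another class than Retnla. The genes are therefore called by their names.

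Each library pooled animals whose cells carried hash tags, antibodies bearing a DNA barcode, and the deposited sheets name the tags. The first library gave samples named Nulliparous (before a pregnancy), Gestation, Lactation and Germ-free, and the second library gave Gestation, Lactation, Involution (the shrinking of the gland after weaning), Regression, Balb/c, GF and Germ-free, 11 hash-defined samples in all. The sample on tag HT2 is called Germ-free in both sheets, but the titles of the first library list involution in place of it, so it is written HT2 here, and GF is the second library's sample on tag HT12. Neither the number of animals per tag, nor their age, nor the strain of the samples other than Balb/c, nor the reproductive stage of the animals called Balb/c and GF is given in the sources used here. A name has 1 sample per library, so names were compared within a library and no spread between animals could be measured. Cells had medians of 1599 UMIs in the first library and 3049 in the second library, and 139 cell barcodes were kept in both libraries. Levels are UMIs per 10000 UMIs of a class in a sample. The 8 monocyte markers, 5 of them genes of the gate, summed to 42.6 to 52.5 such units in monocytes of the first library. In those of the second library the sum was 34.3 to 73.2. Macrophages had 5.19 to 16.9 and 5.52 to 18.5, and other Csf1r-positive cells 15.5 to 24.4 and 13.5 to 23.5. As the gate asks for such genes, the sum is no independent check of the class names. A sum of 6 macrophage markers other than C1q was 20.4 to 38.7 in macrophages and 6.76 to 11.5 in monocytes of the second library. In the first it did not separate them (10.0 to 17.8 and 11.996 to 14.6), so the class names rest there on the gate. This sum holds Csf1r, which the gate asks of monocytes but not of macrophages. The other Csf1r-positive cells also carried markers of other cell types. In the second library, sums of 4 T cell, 4 B cell and 6 neutrophil markers had medians of 6.73, 3.70 and 9.86 there. In macrophages they were 0.966, 0.690 and 0.464. In the first library the class had 4.22, 1.32 and 11.8. The part of such cells in the levels, shares and differences of this class was not tested. Intervals of levels are exact 95% Poisson intervals, those of shares exact 95% binomial ones, and both cover counting error alone.

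The genes lie at 6 places in the genome (RefSeq, build GRCm38.p6): Retnla on chromosome 16 from 48842609 to 48844461, Lyz1 on chromosome 10 from 117287795 to 117292868, Ear2 on chromosome 14 from 44102654 to 44103531, Chil3 on chromosome 3 from 106147554 to 106167564, Fn1 on chromosome 1 from 71585473 to 71653280, Ccl9 on chromosome 11 from 83572917 to 83578636 and Ccl6 on chromosome 11 from 83587886 to 83593087. Ccl9 and Ccl6 are neighbours with 9250 bases between them. Lyz1 lies 5523 bases from its near copy Lyz2, and how reads shared by near copies were counted is not given in the sources used here. The promoters of Retnla and Chil3 are shown because these 2 markers of alternative activation had their highest levels in different classes. Each window holds 300 bases around the annotated start, most of them before it, and is read along the gene's strand: chr16:48842359-48842658 on the plus strand for Retnla and chr3:106167515-106167814 on the minus strand for Chil3. Capitals mark matches, on either strand, to 4 motifs: TTC and GAA with any 4 bases between (the STAT6 type), TTGCNNAA (the C/EBP type), GGAAGT (the ETS type, bound by PU.1 among others) and TATAAA.
Retnla promoter: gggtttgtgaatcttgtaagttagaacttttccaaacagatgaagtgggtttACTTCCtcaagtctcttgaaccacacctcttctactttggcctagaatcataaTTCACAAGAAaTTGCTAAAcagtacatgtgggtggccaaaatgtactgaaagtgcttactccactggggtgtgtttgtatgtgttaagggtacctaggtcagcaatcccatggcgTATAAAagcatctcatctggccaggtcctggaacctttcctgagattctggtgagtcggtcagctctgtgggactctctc
Chil3 promoter: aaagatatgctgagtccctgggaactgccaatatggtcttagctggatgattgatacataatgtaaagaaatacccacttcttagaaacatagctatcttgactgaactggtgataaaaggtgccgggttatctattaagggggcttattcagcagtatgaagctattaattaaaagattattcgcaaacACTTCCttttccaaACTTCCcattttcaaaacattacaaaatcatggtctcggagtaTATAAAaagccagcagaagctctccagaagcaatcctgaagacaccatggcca
The Retnla window held the STAT6-type letters at -145 and the C/EBP-type letters at -134, counted from the start to the first base of the match, with no overlap between them. It also held GGAAGT at -198 and TATAAA at -30. The Chil3 window held GGAAGT at -60 and -46 and TATAAA across the annotated start at -3, and neither of the other motifs. Of the 6 genes with a window in the table, 1 held the STAT6-type letters, 3 the C/EBP-type, 5 GGAAGT and 3 TATAAA. Over all 32851 promoter windows of the table the shares were 6.95%, 10.8%, 23.8% and 13.6%. A match is a run of letters, and binding was not measured.

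All members but Chil3 had their highest median level in the other Csf1r-positive cells, and Chil3 had its in monocytes. Over the 11 samples, Retnla had a median of 90.05 UMIs per 10000 in other Csf1r-positive cells (22.1 to 131), 46.8 in macrophages (1.49 to 98.4) and 11.3 in monocytes (0.234 to 31.2). It was higher in other Csf1r-positive cells than in macrophages in 9 of 11 samples, the exceptions being Gestation and GF of the second library. Fn1, fibronectin, had medians of 15.8, 2.60 and 4.16 in the same order of classes, and was higher in other Csf1r-positive cells than in macrophages in 11 of 11 samples. Ear2 had medians of 6.32, 1.80 and 3.55, and was also higher in other Csf1r-positive cells than in macrophages in 11 of 11 samples, while monocytes exceeded macrophages in all 11. For Lyz1 the medians were 5.67, 1.49 and 1.49, and other Csf1r-positive cells exceeded macrophages in 10 of 11 samples, the exception being Gestation of the first library with 1 UMI. The chemokine genes differed less between classes: Ccl6 had medians of 16.3, 10.3 and 7.48 and Ccl9 of 5.20, 4.05 and 3.10. For these 2 genes other Csf1r-positive cells exceeded macrophages in 8 and 10 of 11 samples. Chil3 had medians of 0.221 in other Csf1r-positive cells, 0.0790 in macrophages and 4.31 in monocytes, which exceeded both other classes in 11 of 11 samples.

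**Figure D1:**
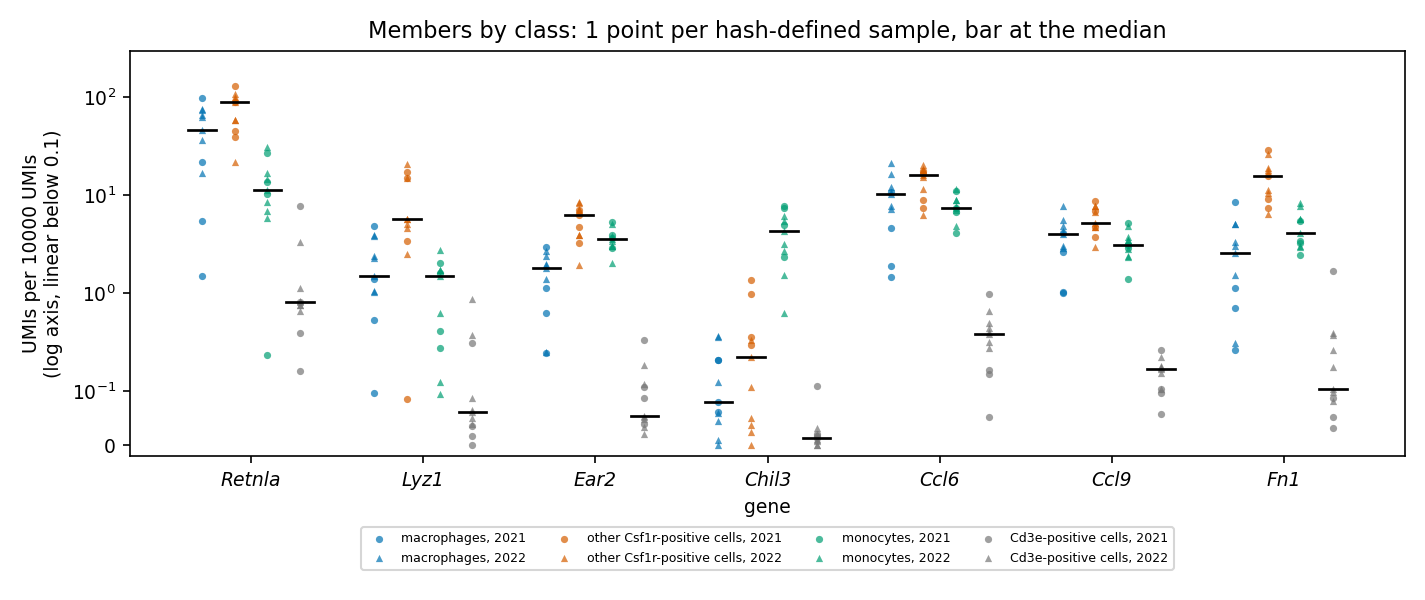
UMIs per 10000 UMIs (log axis, linear below 0.1) of each gene by class; each circle (first library) or triangle (second library) is 1 hash-defined sample and each bar the median of 11. Chil3 stands highest in monocytes, the other genes in other Csf1r-positive cells, and the Cd3e-positive T cells show the free RNA of each gene.

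The monocytes held 52.9% of the Chil3 UMIs of all analysed cells in the first library and 76.8% in the second library, in 2.39% and 4.89% of the cells. The same cells held 3.71% and 5.90% of the Retnla UMIs. Macrophages and other Csf1r-positive cells together held most of the Retnla UMIs: 29.97% and 32.3% in the first library, and 52.3% and 29.7% in the second library. Fn1 had its largest myeloid share in the other Csf1r-positive cells, 35.1% in the first library and 44.4% in the second library. In the first library, 31.0% of Retnla lay in the remaining cells, which carried neither Csf1r nor a C1q sum of 4 and were not in the Cd3e-positive reference below, against 10.5% in the second library. Of these remaining cells 194 and 1080 had both a Cd3e UMI and 1 to 3 C1q UMIs, and they held 0.127% and 8.22% of the class's Retnla.

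Free RNA sets the floor for these values. T cells should lack all 7 genes, and Cd3e-positive cells without Csf1r or C1q were used as the reference (3086 and 3443 cells). Their Retnla level was 0.161 to 7.87 UMIs per 10000 in the first library and 0.657 to 3.34 in the second library. A few of these cells held 10 or more Retnla UMIs each, 6 in the first library and 3 in the second library, and they carried 83.3% and 35.0% of the class's Retnla. Without them the range was 0.161 to 0.233 in the 4 samples of the first library and 0.657 to 0.835 in the 7 of the second library, a choice made after these cells were seen. Ccl6 without those cells reached at most 0.130 and 0.448, Fn1 0.0894 and 0.271, and Chil3 0.114 and 0.0327. In barcodes of 10 to 100 UMIs, which the first library's matrix holds, Retnla stood at 4.82 UMIs per 10000 (interval 4.57 to 5.08) and Lyz2 at 9.37. Such barcodes can hold debris of myeloid cells as well as free RNA. At least 1 Retnla UMI was seen in 3.30% to 3.88% of the Cd3e-positive cells in the first library and 21.0% to 23.9% in the second library, at median depths of 1285 to 2047 and 2750 to 3357 UMIs per cell, so a share of cells with a UMI in this range is background. Among macrophages, at medians of 1626 to 2940 and 4305 to 5239 UMIs, it was seen in 4.29% to 61.0% of cells.

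In macrophages of the first library Retnla stood at 5.44 UMIs per 10000 in Nulliparous (interval 5.06 to 5.84), 1.49 in Gestation (1.27 to 1.73), 21.7 in Lactation (20.8 to 22.5) and 98.4 in HT2 (95.0 to 101.8). No 2 of these 4 intervals overlapped. In the second library the level was 36.4 in Gestation, 63.8 in Lactation, 46.8 in Involution, 73.9 in Regression, 16.9 in Balb/c, 76.0 in GF and 65.4 in HT2. GF and Regression overlapped in their intervals, as did HT2 and Lactation, and the other neighbours in the order did not. The Gestation sample was thus the lowest in the first library, and in the second library it was above Balb/c alone.

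Other Csf1r-positive cells showed Retnla at 45.7 in Nulliparous, 39.7 in Gestation, 90.05 in Lactation and 131 in HT2 in the first library, in UMIs per 10000. The levels of the second library were 22.1 in Gestation, 90.1 in Lactation, 101 in Involution, 107 in Regression, 58.8 in Balb/c, 59.0 in GF and 96.2 in HT2. Gestation was the lowest sample of this class in both libraries, although its interval in the first library overlapped that of Nulliparous. In monocytes the first library's levels were 10.2, 0.234 (4 UMIs), 26.9 and 13.7 in the same order of names, and those of the second library ran from 5.86 in Lactation to 31.2 in Involution. The first library's Gestation monocytes were thus at the level of free RNA.

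**Figure D2:**
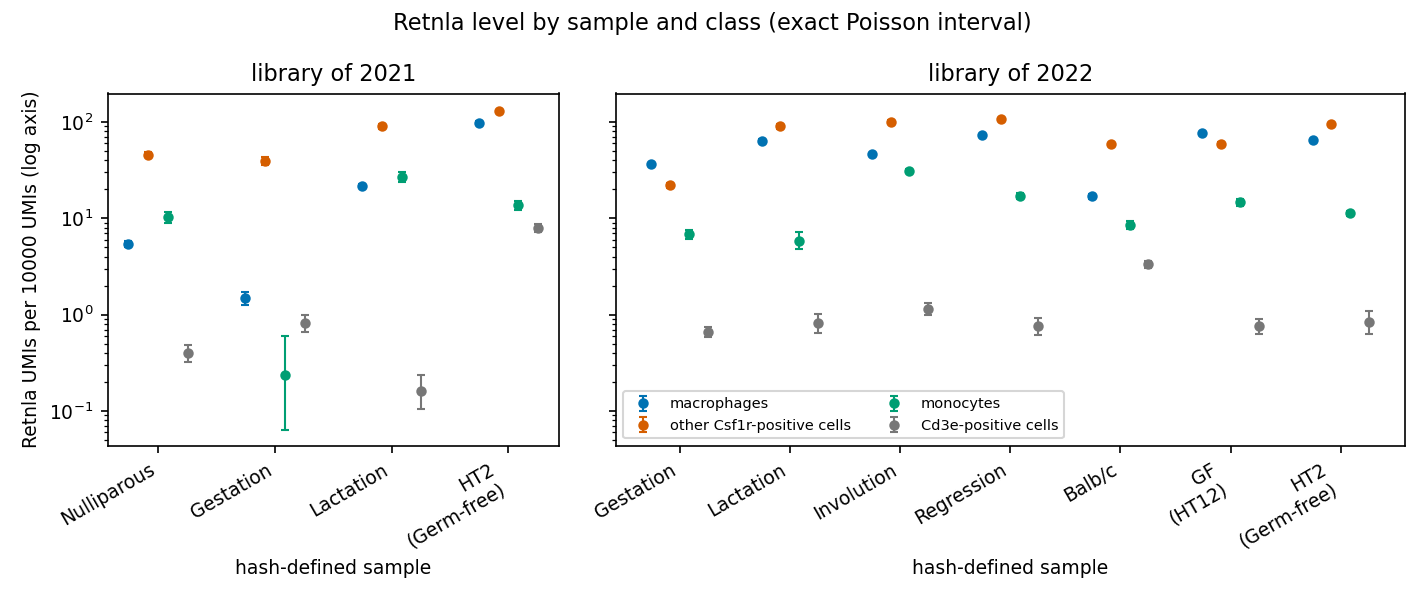
Retnla UMIs per 10000 UMIs (log axis) in each hash-defined sample of both libraries, with exact 95% Poisson intervals as bars. Macrophages run from 1.49 to 98.4 and other Csf1r-positive cells from 22.1 to 131, while Cd3e-positive cells stay at or under 7.87.

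These levels rested on few cells. The first library's Gestation macrophages had 170 Retnla UMIs over 513 cells, of which a single cell held 72.9%, and without it the level was 0.403. In the other 10 samples the highest macrophage held 6.38% to 35.4% of the Retnla UMIs. Among monocytes 1 cell held 94.1% of the UMIs in Balb/c and 97.5% in GF, and the levels without it were 0.515 and 0.376, under the level of free RNA in that library. The tenth of macrophages with most UMIs of Retnla held a median of 88.7% of them over the 11 samples (69.1% to 100%).

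Cells with 10 or more Retnla UMIs, a threshold chosen after the data were seen and called Retnla-rich below, carried nearly all of the transcript. They held 84.7% to 99.3% of the Retnla UMIs of macrophages in the 11 samples and 95.0% to 99.6% of those of other Csf1r-positive cells. They were 414 of 2737 macrophages, 264 of 1039 other Csf1r-positive cells and 39 of 1080 monocytes. Near the threshold, with 5 to 19 UMIs, lay 115 macrophages, 55 other Csf1r-positive cells and 5 monocytes, and 1938, 602 and 869 cells had no Retnla UMI. These groups are ranges of a count, not cell types, and a fixed count favours deep cells. Among other Csf1r-positive cells, rich cells had more UMIs at the median in every sample. Examples are 9601 against 2843 in Gestation of the second library and 3592 against 1467 in HT2 of the first. Among macrophages the medians were 5402 against 4162 in HT2 and 4038 against 5421 in Lactation of the second library. Within the rich macrophages the Retnla level ran from 135 to 332 UMIs per 10000 over the samples and outside them from 0.228 to 2.52. Within the rich other Csf1r-positive cells it ran from 160 to 304, and outside them from 0.754 to 5.16.

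Samples also differed in the share of such cells. Among macrophages the share in the first library was 3.27% in Nulliparous (12 of 367 cells, interval 1.70% to 5.64%), 0.390% in Gestation (2 of 513, 0.0472% to 1.40%), 8.71% in Lactation (27 of 310, 5.82% to 12.4%) and 26.0% in HT2 (34 of 131, 18.7% to 34.3%). In the second library it was 15.4% in Gestation (20 of 130), 26.6% in Lactation (17 of 64), 18.8% in Involution (64 of 340), 31.1% in Regression (75 of 241), 6.50% in Balb/c (8 of 123), 22.2% in GF (36 of 162) and 33.4% in HT2 (119 of 356). HT2 was the highest of its library in both, and in the second library its interval, 28.5% to 38.6%, overlapped those of Regression, Lactation and GF.

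Other Csf1r-positive cells were Retnla-rich in 17.6% of the first library's Nulliparous cells (22 of 125), 5.88% of Gestation (4 of 68), 31.3% of Lactation (21 of 67) and 46.1% of HT2 (53 of 115). The shares of the second library were 6.61% in Gestation (8 of 121), 20.6% in Lactation (7 of 34), 34.7% in Involution (26 of 75), 32.4% in Regression (34 of 105), 17.1% in Balb/c (18 of 105), 17.2% in GF (16 of 93) and 42.0% in HT2 (55 of 131). Gestation was lowest and HT2 highest in both libraries, but neither stood clear of its neighbours. The interval of HT2 overlapped that of Lactation in both libraries and those of Involution and Regression in the second library. The interval of Gestation overlapped that of Nulliparous in the first library and those of Lactation, Balb/c and GF in the second. The share in Lactation exceeded that in Gestation by 25.5 percentage points in the first library (Newcombe 95% interval 12.6 to 37.8) and by 14.0 in the second library (2.16 to 30.5). With tags called by a ratio the second library's excess was 6.39 (-3.89 to 21.9), an interval that includes 0. Among macrophages the excess was 8.32 points in the first library (5.48 to 11.996) and 11.2 in the second library (-0.548 to 24.2), where the interval includes 0. In 4 of 7 alternatives the latter interval lay above 0: 17.5 (4.66 to 30.8) with a threshold of 5 UMIs, 15.1 (2.47 to 28.5) at equal depth, 9.02 (0.898 to 18.7) with a C1q sum of 2 and 11.9 (0.617 to 24.6) with Scrublet calls kept. Monocytes were rich in 0 of 87 Gestation cells of the first library, which allows a share of up to 4.15%, and in at most 7.14% of any sample's cells. The intervals count cells of 1 sample per name and do not measure the spread between animals.

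**Figure D3:**
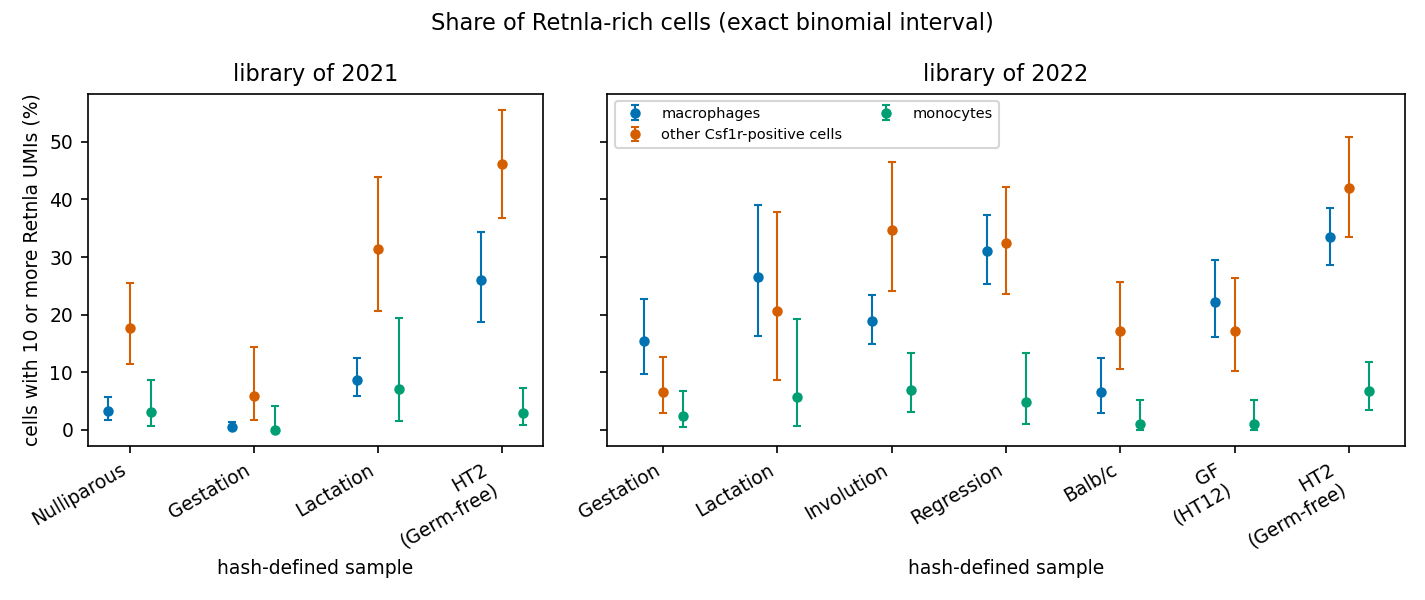
Percent of cells with 10 or more Retnla UMIs in each hash-defined sample, by class, with exact 95% binomial intervals as bars. Gestation is the lowest sample of the other Csf1r-positive cells in both libraries (5.88% and 6.61%) and HT2 the highest (46.1% and 42.0%), while monocytes stay at or under 7.14%.

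Fn1, Ccl6, Lyz1, Ccl9 and Ear2 were high in the same cells as Retnla, and Chil3 was mostly low or absent there. The 10 samples with at least 5 rich cells in the class were used, which leaves out Gestation of the first library. In other Csf1r-positive cells Fn1 had a median of 32.7 UMIs per 10000 in rich cells (26.6 to 51.9) against 2.33 in the rest (0.717 to 9.05), and the 2 ranges did not overlap. Ccl6 stood at 29.0 against 4.97, Lyz1 at 15.8 against 0.813, Ccl9 at 11.8 against 1.75 and Ear2 at 11.3 against 1.91, each higher in rich cells in 10 of 10 samples. Chil3 was at 0 in the rich cells of all 10 samples and had a median of 0.259 in the rest. In macrophages the medians were 31.5 against 5.11 for Ccl6, 13.1 against 0.232 for Fn1, 10.8 against 2.38 for Ccl9, 8.36 against 0.477 for Lyz1 and 6.90 against 0.536 for Ear2. Ccl6 and Ccl9 were higher in rich macrophages in 10 of 10 samples, and Fn1, Lyz1 and Ear2 in 9 of 10. Chil3 was higher in rich macrophages in 2 of 10 samples, with a median of 0 (0 to 1.13) against 0.116 in the rest (0 to 0.550). Monocytes, the class with most Chil3, had too few rich cells per sample and were summed over each library. Their 10 rich cells of the first library had 1.69 Chil3 UMIs per 10000 (interval 0.729 to 3.33, all 8 UMIs in 1 cell) against 5.69 in the rest. The 29 of the second library had 0.399 (0.191 to 0.734, in 4 cells) against 3.96. Fn1 in the same rich monocytes was at 25.5 against 2.30 and at 29.6 against 4.02. Since the cells were selected on Retnla, its own difference is the selection, and these companion values are given without a test.

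**Figure D4:**
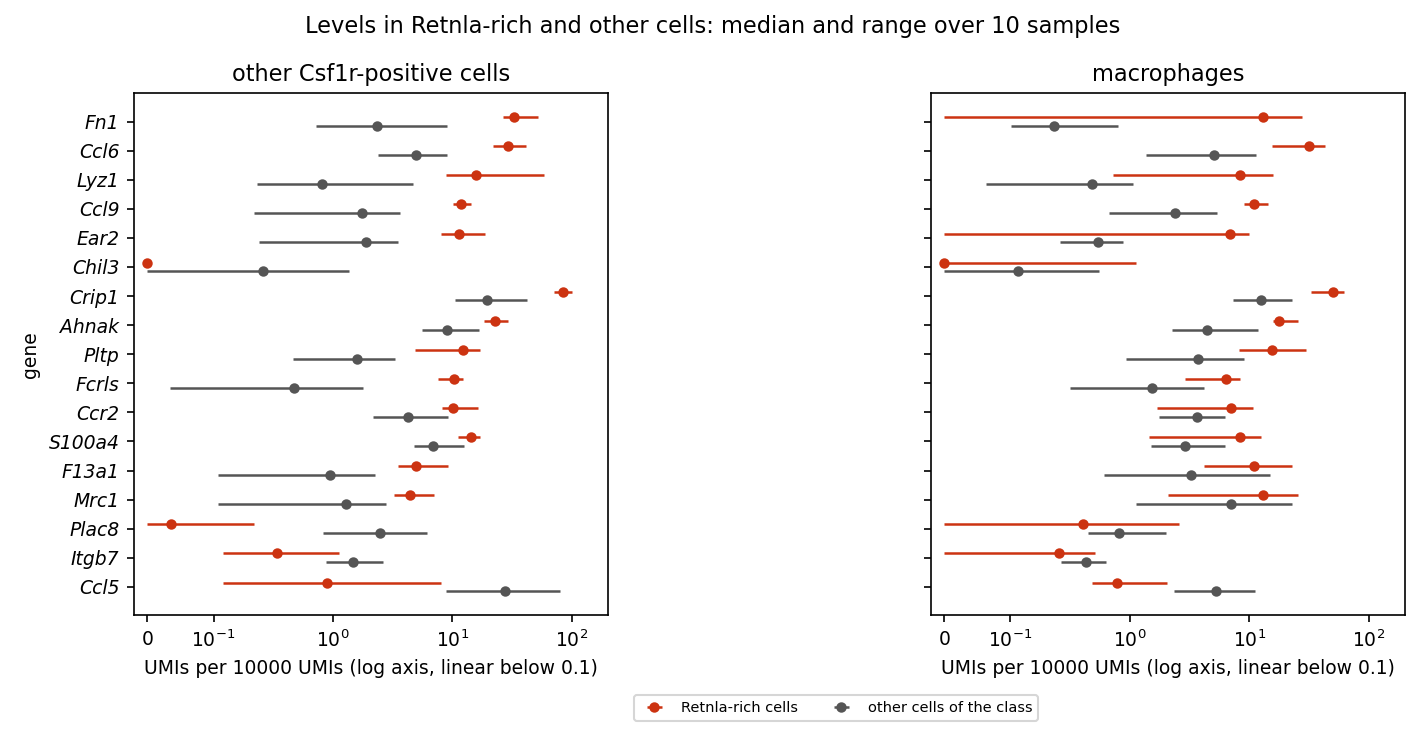
Levels in UMIs per 10000 UMIs (log axis, linear below 0.1) of 6 members and 11 other genes in Retnla-rich cells (red) and in the other cells of the class (grey); points are medians and bars the range over 10 samples. In other Csf1r-positive cells the red and grey ranges of Fn1, Ccl6, Lyz1, Ccl9 and Ear2 are apart, and Chil3 is at 0 in the red ones.

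Across the cells within a sample, on log-scaled levels, the correlation of Retnla with Fn1 averaged 0.82 over the 11 samples in other Csf1r-positive cells (0.74 to 0.88) and 0.49 in macrophages (0.04 to 0.71). With Ccl9, Ear2, Ccl6 and Lyz1 the mean r in other Csf1r-positive cells was 0.71, 0.68, 0.66 and 0.59, above 0 in all 11 samples. With Chil3 it was -0.13, below 0 in all 10 samples that had Chil3 UMIs. Ccl6 and Ccl9, the neighbours on chromosome 11, had a mean r of 0.74 there and of 0.53 in macrophages. This was not particular to neighbours. Ccl9 with Fn1 was at 0.75 in other Csf1r-positive cells, and Ear2 and Lyz1 with Fn1 were at 0.57 and 0.55 in macrophages. Most other pairs were lower. Cells of a sample share a library and a range of depth, and no test was made of these values. The other Csf1r-positive cells also carried markers of lymphocytes and neutrophils. The part of such cells in the values of r, and in their difference from macrophages, was not tested.

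Among 5265 genes detected in at least 5% of the macrophages of both libraries, the gene most like Retnla was Ccl6 (mean r of 0.53 over 11 samples). Fn1 ranked 3, Ccl9 5, Ear2 8 and Lyz1 10. The 8 most alike genes outside the members were Gda (guanine deaminase, mean r of 0.50), Ahnak (a large scaffold protein, 0.47), Pltp (phospholipid transfer protein, 0.45), Ecm1 (a matrix protein, 0.44), Fcrls (an Fc receptor-like scavenger receptor, 0.41), Crip1 (0.40), F13a1 (coagulation factor XIII chain A, 0.39) and Capg (an actin-capping protein, 0.36). In other Csf1r-positive cells all 8 were higher in Retnla-rich cells in 10 of 10 samples. That class did not enter the ranking, but it comes from the same samples and borders on the macrophages at the C1q threshold. It also carried markers of lymphocytes, so these values are no independent support. Crip1 had medians of 83.5 against 19.3 UMIs per 10000, Pltp 12.3 against 1.58 and Fcrls 10.4 against 0.471.

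Genes of the macrophage list went both ways in the Retnla-rich other Csf1r-positive cells, though the gate itself bounds Csf1r and the C1q genes. Of 9 on that list, 5 had a higher median in rich cells and 4 a lower one. Mrc1, the mannose receptor, had a median of 4.46 UMIs per 10000 against 1.29 in the rest of the class, Adgre1 (F4/80) 1.23 against 0.449 and Cd68 2.51 against 1.21, each higher in 10 of 10 samples. Fcgr1, an Fc receptor gene of macrophages, was higher in 0 of 10 samples (0 against 0.172). Csf1r was higher in 2 (3.22 against 3.71), C1qa in 2, C1qb in 8 and C1qc in 1. The gate asks for at least 1 Csf1r UMI and a C1q sum under 4 in every cell, and the rich cells were deeper. Lower levels of Csf1r and C1q per 10000 UMIs can thus follow from the gate. Of the 8 monocyte genes 2 had a higher median in rich cells, 3 a lower one and 3 the same. The monocyte gate keeps cells with a UMI of any of 5 of these genes out of this class unless they carry Siglech. The 2 higher ones were Ccr2, the receptor that draws monocytes out of the blood (10.0 against 4.24), and S100a4 (14.3 against 6.84). Both were higher in 10 of 10 samples, and the other 6 genes in 0. Lyz2 stood at 87.2 against 25.3, also in 10 of 10. Plac8 was lower in rich cells in all 10 samples (0.0364 against 2.46). So were the integrin genes Itga4 (1.87 against 3.23) and Itgb7 (0.340 against 1.48) and the chemokine gene Ccl5 (0.884 against 27.3). The class also carried T cell, B cell and neutrophil markers (above), and the rest was not split by cell type. The higher and lower genes here are thus not set against myeloid cells alone, and the part of such cells was not tested. Of 8 dendritic cell genes 6 had a lower median in rich cells, among them the defining receptor Flt3 (0 against 0.256), but Itgax was higher in 6 of 10 samples (1.41 against 1.32) and Cd209a in 5 (0.323 against 0.357). The defining genes of alveolar macrophages, Marco and Krt79, and the eosinophil gene Epx were at 0 in both groups of this class. Siglecf, another eosinophil gene, had 9 UMIs, all in rich cells of 6 samples (median 0.0491), and the other 3 eosinophil genes had medians of 0 in both groups. Of the near copies, Chil4, Ear6 and Ear10 were at 0 there, and Ear1 had 3 UMIs. Retnlg, a near copy of Retnla and a gene of neutrophils, had 230 UMIs, with a median of 0 in rich cells and 1.21 in the rest, and was higher in rich cells in 1 of 10 samples.

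A list of 26 genes of alternative activation, drawn up with earlier results known, was read in the same way in Retnla-rich macrophages. Of these genes 18 had a higher median in rich macrophages and 8 a lower one. No share over all genes was set beside these counts. Cd209d, Ccl24, Folr2, Irf4, F13a1 and Cd36 were higher in rich macrophages in 10 of 10 samples, with medians of 2.73 against 0.558 for Cd209d, a lectin receptor, and 5.26 against 1.59 for Folr2, a folate receptor of resident macrophages. Mrc1 (12.9 against 7.02) and Cd163, a haemoglobin scavenger receptor (3.86 against 1.68), were higher in 7 and 8 of the 10 samples. Il4ra, the interleukin-4 receptor chain, was higher in 4 and Stat6 in 7. Arg1 and Il13ra1 were higher in 3, Stab1, Pdcd1lg2 and Ccl22 in 2 and Ccl17 in 1. Tgm2 was lower in all 10. F13a1 was also picked above for its likeness to Retnla in macrophages, so its count is no separate support. The inflammatory chemokine genes Ccl3, Ccl4 and Ccl5 were lower in rich macrophages in 10 of 10 samples, Ccl4 with 0.508 against 4.15 UMIs per 10000 and Ccl5 with 0.784 against 5.28.

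The C1q threshold cut through cells with high Retnla. Cells with a C1q sum of 3, just outside the macrophage gate, had a Retnla level of 34.6 UMIs per 10000 in the first library (73 cells) and 62.7 in the second library (82 cells), and cells with a sum of 4, just inside, had 43.6 (75 cells) and 91.7 (56 cells). Fn1 stood at 6.74 and 10.5 with a sum of 3 and at 4.94 and 12.3 with a sum of 4.

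Macrophages were then compared with each of the other myeloid classes on UMI sums of the 11 samples, with the sample as a block. All 6 tested members were lower in macrophages than in other Csf1r-positive cells, by log2 differences of -2.67 (SE 0.31) for Fn1, -1.87 (0.25) for Ear2, -1.82 (0.29) for Lyz1, -1.01 (0.35) for Retnla, -0.67 for Ccl6 and -0.61 for Ccl9; Chil3 had too few counts. Against monocytes, Chil3 was at -4.95 (0.32), Ear2 at -1.32, Fn1 at -1.04, Retnla at 1.77 (0.33), Lyz1 at 0.81, Ccl9 at 0.19 and Ccl6 at 0.12. These class levels were known when the members were chosen and no p is given for them. The median over all genes tested was -0.01 against other Csf1r-positive cells and 0.02 against monocytes.

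Most tested companion genes of alternative activation were higher in macrophages. The list was drawn up with earlier results of these data known, and Mrc1 on it is also on the macrophage list. Macrophages were gated on C1q, and the other Csf1r-positive cells carried markers of lymphocytes and neutrophils. The calls are thus no independent support for a state of activation. Of the 26 genes on that list, 17 were tested against other Csf1r-positive cells; 11 were higher in macrophages and 1 was lower, Irf4, at adjusted p of 0.05 (edgeR's quasi-likelihood test), with a median log2 difference of 1.26. Of all 5784 genes tested, 17.8% were called higher and 14.2% lower. Stab1, a scavenger receptor, was at 5.19 (SE 0.27, adjusted p = 1.43e-10), Pf4 at 5.79, Cd163 at 3.80, Clec10a at 2.12 and Mrc1 at 1.50. Against monocytes 18 were tested, 11 were higher and 4 lower (Il13ra1, Stat6, Tgm2 and Klf4), where 18.0% and 16.4% of 6191 genes were called. The chemokine receptor Ccr1 was higher in macrophages than in monocytes (1.70, SE 0.26, adjusted p = 4.30e-05) and than in other Csf1r-positive cells (0.74, adjusted p = 0.0118), while the integrin gene Itga4 was lower in both. Fits were made on all genes passing the filter on low counts.

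Lactation was compared with Gestation in each class on 4 sums, 1 per name and library, with the library as a block and 1 residual degree of freedom. In other Csf1r-positive cells Retnla was higher in Lactation in both libraries, at 90.05 against 39.7 UMIs per 10000 in the first library and 90.1 against 22.1 in the second library, a log2 difference of 1.55 (SE 0.24). Of the 6 members tested 5 were called higher by edgeR's quasi-likelihood test with Benjamini-Hochberg adjustment, where 1.24% of all 2589 genes tested were. The adjusted p was 7.22e-08 for Retnla, 1.61e-13 for Lyz1 (2.40, SE 0.29), 5.27e-06 for Ear2 (1.49, SE 0.26), 2.04e-04 for Ccl6 (1.18, SE 0.24) and 0.0367 for Fn1 (0.82, SE 0.24). Ccl9 was at 0.63 with an adjusted p of 0.285. The members were chosen with such differences in view, so the calls are no independent support.

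Ccl6 stood at 16.4 against 7.41 UMIs per 10000 in the first library and 15.5 against 6.23 in the second library, and Ear2 at 7.004 against 3.27 and 7.32 against 1.94. Lyz1 was at 15.2 against 0.0862 (1 UMI) in the first library and at 5.06 against 2.54 in the second library. Fn1 had 15.8 against 7.50 and 10.6 against 6.52. Each of these 4 genes was higher in Lactation in both libraries. Pltp, Fcrls, F13a1, Capg and Lyz2 were called higher, by 0.84 to 1.31. The first 4 are from the list of genes most like Retnla, of which 7 were tested and 4 called. That list was picked by likeness to Retnla in macrophages of the same samples, so these calls are no separate support. Plac8 was called lower (-1.59, SE 0.34, adjusted p = 3.89e-04 by edgeR). The calls depended on the spread shared over genes, since the estimated prior degrees of freedom were infinite. The adjusted p of Retnla was 0.00965 with DESeq2, which called 1 gene, 1.0 without the library block, 0.0630 with a C1q threshold of 2, 0.334 with one of 8, and 0.443 with tags called by a ratio. Of these and the other alternatives, 9 in all, Retnla was called in 5, Ear2 and Ccl6 in 4, Lyz1 in 3 and Fn1 in 1, and each kept its direction in all 9.

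In macrophages Retnla was at 21.7 against 1.49 UMIs per 10000 in the first library and at 63.8 against 36.4 in the second library, a log2 difference of 2.32 (SE 0.51), with an adjusted p of 0.167. None of the 7 members was called, where 0.0610% of 8197 genes were (5 genes); 445 genes had an unadjusted p under 0.05, and DESeq2 called 2 genes. Lyz1 was at 1.87 (adjusted p = 0.289), Ccl6 at 1.08 and Ccl9 at 1.07. Fn1 and Ear2 went opposite ways in the libraries: Fn1 was at 1.12 against 0.262 UMIs per 10000 in the first library and at 1.54 against 2.60 in the second library, and Ear2 at 1.14 against 0.245 and at 1.38 against 1.93, where the intervals overlapped. Of the alternative activation list 21 genes were tested and 0 called, with a median of 0.75 where the median of all genes was 0.01. Haemoglobin UMIs, from red cells, stood at 32.4 UMIs per 10000 in the second library's Gestation macrophages and 49.8 in the Lactation ones. Milk-protein UMIs reached 23.4 in the first library's Gestation macrophages, the highest macrophage value of that library. Over the 7 samples of the second library they reached 56.3 in macrophages, 45.2 in other Csf1r-positive cells and 1018 in monocytes (median 9.63). The part of haemoglobin and milk-protein UMIs in the levels was not tested.

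In monocytes 6 members were tested and 0 called; Ccl9 was at 1.05 (SE 0.29, adjusted p = 0.121), Ccl6 at 0.92 (adjusted p = 0.175) and Chil3 at -0.75 (SE 0.26, adjusted p = 0.333). By edgeR 204 of 2666 genes had an unadjusted p under 0.05 and 0.338% were called higher, and DESeq2 called 0. Chil3 was lower in Lactation in both libraries, at 4.99 against 7.72 UMIs per 10000 in the first library and 3.15 against 5.43 in the second library, with overlapping intervals in the first library. Retnla was at 26.9 against 0.234 in the first library and at 5.86 against 6.84 in the second library, where the intervals overlapped. From the alternative activation list Mrc1 (2.14, SE 0.43, adjusted p = 0.0152), Mgl2 (3.11, adjusted p = 0.0109) and Cd209a (2.33, adjusted p = 0.00817) were called higher among 9 tested. Mrc1 is also on the macrophage list, of which 1 of 5 tested genes was called, and Cd209a on the dendritic list, of which 1 of 2 was. The summed level of 6 macrophage markers was 12.7 UMIs per 10000 in Lactation against 13.7 in Gestation in the first library and 9.07 in both samples of the second library. That of the 8 dendritic markers was 2.14 against 1.29 and 2.16 against 2.65, and their part in these calls was not tested. The Lactation monocytes numbered 42 in the first library and 35 in the second library.

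**Figure D5:**
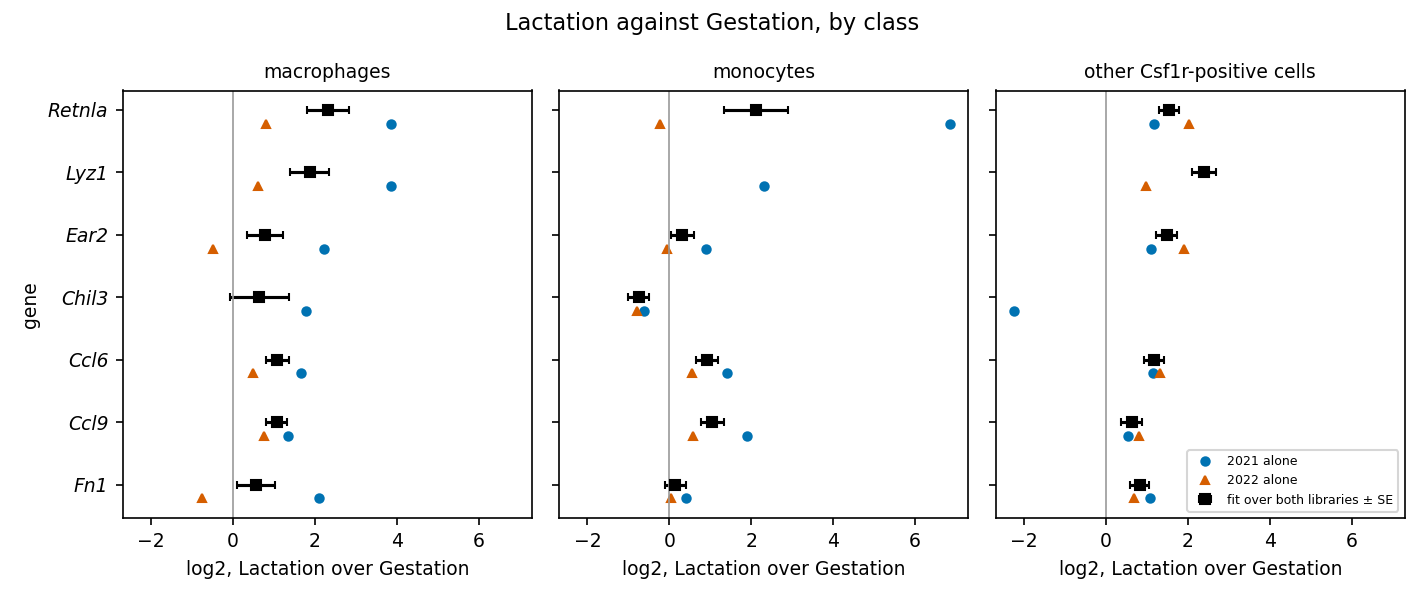
Log2 ratio of Lactation over Gestation of each member in 3 classes: squares are the fit over both libraries with its SE, circles the first library alone and triangles the second library alone (levels, drawn where both samples had more than 3 UMIs). In other Csf1r-positive cells both libraries lie above 0 for the 5 genes drawn with both, while Fn1 and Ear2 in macrophages lie on opposite sides.

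Among the remaining members, Fn1 in macrophages was highest in HT2 of the first library, at 8.59 UMIs per 10000 against 0.262 to 1.12 in the other 3 samples, and in the second library highest in Regression (5.08) and HT2 (5.05). Ccl6 in macrophages was highest in HT2 in both libraries, at 10.9 in the first library, where the others had 1.46 to 4.61, and at 21.6 in the second library, where the others had 7.17 to 16.6. Lyz1 in other Csf1r-positive cells was highest in Balb/c in the second library (21.0), followed by HT2 (15.1), with the other 5 samples at 2.54 to 5.80. Ear2 in macrophages was lowest in Balb/c in the second library (0.251, 17 UMIs), where the others had 1.38 to 2.68. The Balb/c sample also stood apart in its neutrophil markers, 169.8 UMIs per 10000 summed over 6 genes in other Csf1r-positive cells against 1.75 to 18.3 in the other samples of the second library, as did Nulliparous in the first (58.1), and their part in these samples' values was not tested. Chil3 in monocytes ran from 2.35 in HT2 to 7.72 in Gestation in the first library, and from 0.629 in Balb/c to 6.17 in HT2 in the second library.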

How the data were processed

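Per the labels, CD45+ cells of collagenase-digested mammary glands were run on 10x 3' v3.1 with hash tags. The authors deposited raw UMI counts per gene and cell and counts per tag, not normalized; the submitters' processing notes name Cell Ranger 6.1.0 and mm10. It is not given in the sources used here how reads shared by near copies (Lyz1 and Lyz2, Chil3 and Chil4, the Ear genes) were counted.

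The minimum per cell was 500 UMIs and 300 genes, and the maximum mitochondrial share was 10%, which kept 21604 cells of the first and 21177 of the second library. Tags were called with HTODemux (Seurat 5.3.0, R 4.3.3, quantile 0.99), cells with 1 tag were kept, and doublets called by Scrublet (scanpy 1.11.5, expected rate 0.08) were removed. Tag HT4 had almost no counts in the second library. UMIs were summed per sample and class and tested with edgeR 4.0.16 (TMM, filterByExpr, quasi-likelihood test, Benjamini-Hochberg adjustment, threshold 0.05); SEs are the log2 difference divided by the root of F. Labels do not say that a tag is 1 animal, so p-values measure the spread between these sums. Scripts were tested on simulated data. DESeq2 1.42.0, other scalings, gates, tag calls and left-out samples were alternatives. The members and all lists were chosen with earlier results of these data known. Named were all members, the genes of the companion lists that were called or, in Retnla-rich cells, described by their counts of samples, and the 8 genes most like Retnla. The Cd3e-positive cells left out, the Retnla-rich threshold and its alternatives were chosen after seeing the data.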

Additional observations from a re-analysis of the deposited data

Results flagged for a closer look

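Cells outside the myeloid classes carried high Retnla, above what the free RNA of T cells gives. Among the remaining cells, 120 in the first library and 78 in the second library held 10 or more Retnla UMIs and together carried 92.6% and 76.1% of the Retnla of that class. All of them had Lyz2, the lysozyme gene of myeloid cells, and 23 and 39 had a C1q UMI, but none had a Csf1r UMI, by the definition of the class. Among Cd3e-positive cells, 6 in the first library and 3 in the second library held 10 or more Retnla UMIs; all had Lyz2 and none had C1q, again by definition. Their median depth was 5892 UMIs in the first library and 2722 in the second library.

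Fn1 in macrophages differed in direction between the libraries: the log2 ratio of Lactation over Gestation was 2.10 in the first library and -0.75 in the second library, with intervals of the levels apart in both. The difference between the libraries was not tested, since each holds 1 sample per name.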

How the results depend on the processing

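The class comparisons called 2129 genes between macrophages and monocytes and 1851 between macrophages and other Csf1r-positive cells. Leaving out each sample in turn gave 1794 to 2141 and 1631 to 2075. The first library alone gave 651 and 588, and no filter on low counts gave 3015 in the second comparison. With no replicate block the counts were 1930 and 1673.

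Lactation against Gestation depended on most settings. In macrophages edgeR called 5 genes; DESeq2's size factors gave 11, DESeq2 2, no filter 77 and a C1q threshold of 8 gave 8, while 0 were called by edgeR with no replicate block (110 at an unadjusted p under 0.05), a C1q threshold of 2 (513), Scrublet calls kept (414) and tags called by ratio (385). In monocytes the count was 14; no filter gave 71, no replicate block 2, C1q thresholds of 2 and 8 gave 30 and 3, leaving out the highest member cell 6 and the tag ratio 26, while DESeq2 (23 unadjusted) and Scrublet calls kept (152) gave 0. In other Csf1r-positive cells the count was 55; DESeq2's size factors gave 32, DESeq2 1, a C1q threshold of 2 gave 4, Scrublet calls kept 15 and the tag ratio 1, while no replicate block (80) and a C1q threshold of 8 (192) gave 0. The block is the library, shared by the samples of a year; the cause of these changes was not tested.

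Among the recomputed values with a test, directions reversed in 7 cases. Between macrophages and monocytes, Ccl6 was at -0.78 and Ccl9 at -0.40 in the first library alone, and Ccl6 at -0.087 without the cells on tag HT2. For Lactation against Gestation, Chil3 was at -1.22 in macrophages with DESeq2 and at 0.13 in monocytes with the tag ratio, and Fn1 in monocytes at -0.029 with Scrublet calls kept and -0.062 without the highest member cell. Of 469 recomputed log2 differences of members with a test, 395 kept direction and side of the threshold, 53 lost the call and 14 gained it. Leaving out a year leaves 1 pair and no test. Of those 38 values 31 moved by more than 1 SE and 7 by less, and changes of sign in members not called were not counted apart. By levels, the second library alone had log2 ratios of -0.75 for Fn1 and -0.48 for Ear2 in macrophages, where the fits had 0.57 and 0.79. In monocytes Retnla was at -0.22 there and Ear2 at -0.066, where the fits had 2.12 and 0.32. Chil3 in macrophages was also lower in Lactation there, where the fit had 0.64. The excess of Retnla-rich cells in Lactation kept its direction in all 3 classes and both libraries under 7 alternatives added after seeing the data, from 0.532 points (monocytes, second library, threshold of 20 UMIs) to 33.1 (other Csf1r-positive cells, first library, thinned). Whether its interval included 0 depended on the alternative in macrophages and other Csf1r-positive cells of the second library and in monocytes of the first. Chil3 had 0 UMIs of 383128 in the Lactation macrophages of the second library, which allows a level of up to 0.0783 UMIs per 10000.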
